A study of Rattus norvegicus with 13 samples.

Results

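The genes described are 10 heat shock chaperones and co-chaperones of the rat lens, namely Hspa8, Hsph1, Dnajb1, Dnaja1, Bag3, Hspb1, Hspb8, Hsp90aa1, Hspd1 and Hspe1. They were found by gene symbol among the probe sets of the Rat Gene 2.0 ST GeneChip, and the probe set with the highest mean over all arrays stood for each gene. Of the 10 genes, 9 had a probe set that carries no other gene, out of 18166 such genes on the array, and all 9 passed the filter on signal, which left 6778 genes. The only probe set of Hsp90aa1, the inducible cytosolic Hsp90, also carries a pseudogene, Hsp90aa1-ps17, and no value is given for it. Hspd1 and Hspe1 encode the chaperonin of the mitochondrial matrix and are not cytosolic, so the label of cytosolic chaperones holds for 7 of the 9 measured genes.

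Heat shock proteins bind unfolded or aggregating proteins and help them to refold or to be degraded. Hsp70 proteins work in a cycle of ATP binding and release, in which J-domain proteins deliver the clients and nucleotide exchange factors free them, while small heat shock proteins hold unfolded clients without using ATP. Many of these genes are switched on by heat shock factors, which bind repeats of a short unit, GAA, in alternating orientation. In the lens, whose fibre cells keep their proteins for life, the crystallins belong in part to the small heat shock proteins.

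Lenses of 6-week-old male Sprague Dawley rats were cultured outside the body, and the study asked which genes change as galactose turns the lens opaque and as inhibitors of histone acetyltransferases are added. The inhibitor arrays, 1 for each of 6 treatments, came from lenses in 30 mM galactose labelled as 6 days, to which C646 (40 µM), CBP30 (10 µM), CPTH2 (80 µM), C646+CPTH2, CBP30+CPTH2 or TH1834 (50 µM) had been added in DMSO after opacity had formed. The other arrays were 3 of galactose Day 6, 3 of galactose Day 4 (both 30 mM galactose without inhibitor) and 1 control without galactose, labelled as 4 days. C646 and CBP30 are described by the study as inhibitors of p300, CPTH2 of Gcn5 and TH1834 of Tip60. The title of the CBP30+CPTH2 sample names both compounds while its source label gives CPTH2 for both doses, and the title was followed. In the study's lens cultures the other lens of each rat received DMSO alone. The labels do not say whether the galactose Day 6 arrays came from such lenses, nor whether they share rats with the inhibitor arrays. The control differed from the Day 6 arrays in culture time as well, so galactose and time cannot be told apart in that comparison. No source says whether the arrays of a day came from different animals, so p-values measure only the spread between these arrays.

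Values are log2 signals as deposited, on which a difference of 1 is a doubling. A gene was kept when its signal reached 5 in at least 1 of the 13 arrays. A limma model with 1 group per condition gave the tests, two-sided, with Benjamini-Hochberg adjustment over the 6778 genes, and a gene was called when its adjusted p was under 0.05. Counts of genes with an unadjusted p under 0.05 are likewise out of these 6778 genes. The 6 galactose arrays were the only replicates, the lone arrays were taken to vary as they did, and precision was limited by how few arrays there were. The medians of the arrays were 5.62 to 5.89. Of 6 lens fibre markers with a probe set, 6 passed the filter, as did 7 of 9 lens epithelium markers, 2 of 8 macrophage markers and 0 of 7 photoreceptor and 0 of 6 iris and ciliary markers. The mean of the 7 lens epithelium markers was 4.63 to 6.84 in the inhibitor arrays, 5.60 to 6.79 on galactose Day 6, 5.33 to 6.50 on Day 4 and 7.35 in the control, and was lowest in C646+CPTH2 and highest in the control. In whole lenses, fewer cells of a type and less RNA per cell cannot be told apart.

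**Figure D1:**
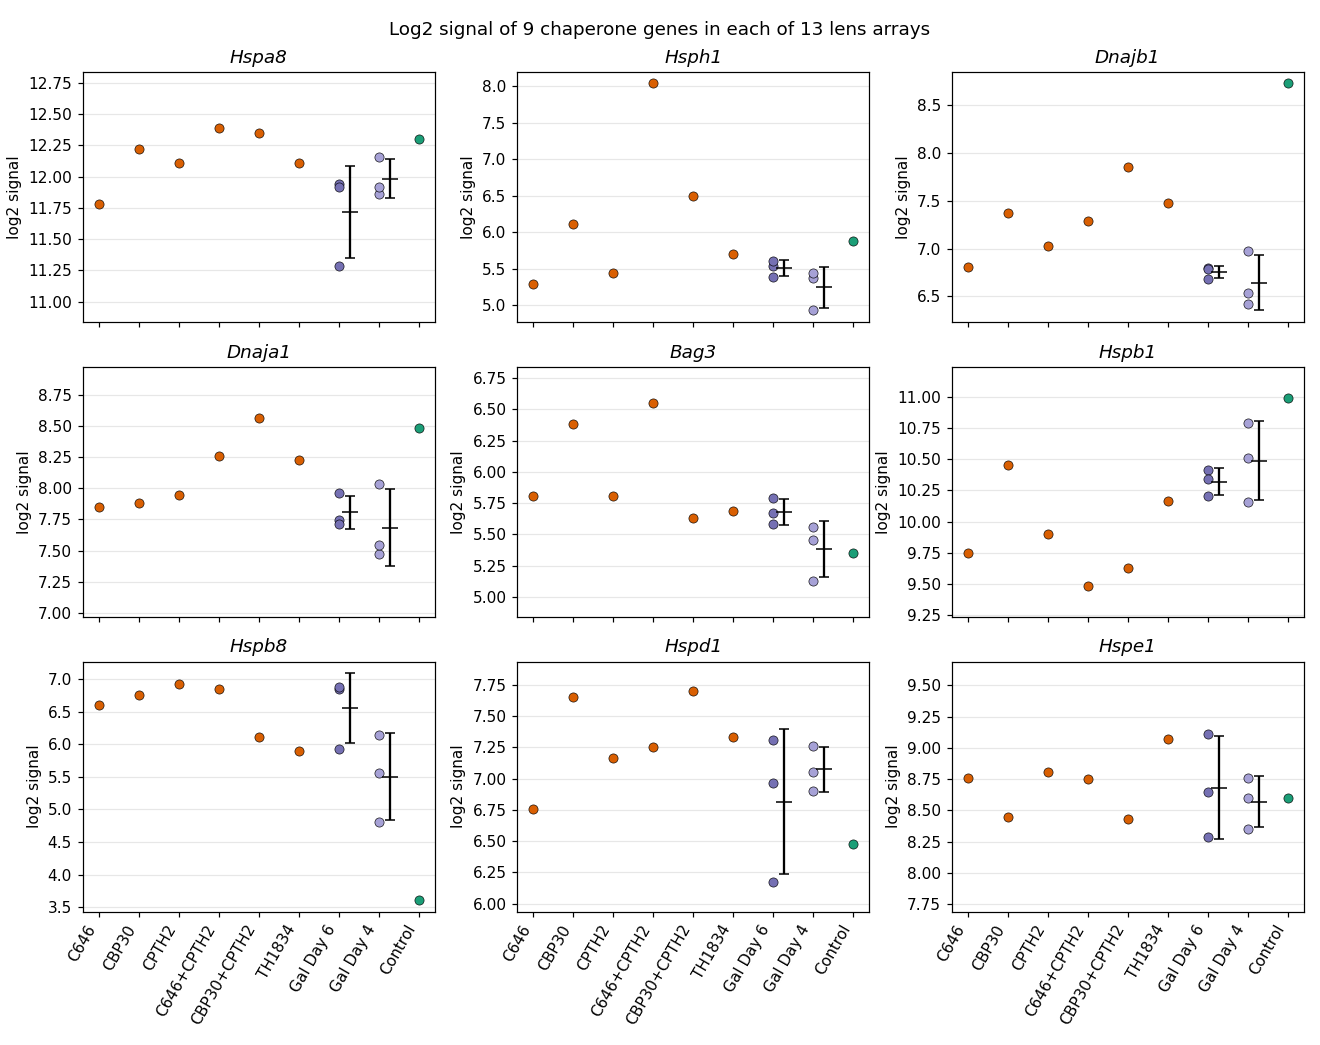
The log2 signal (vertical axis, scaled per panel) of the 9 measured genes in each of the 13 arrays, with the inhibitor arrays on the left, then galactose Day 6, galactose Day 4 and the control; bars beside the galactose points are means ± SD of 3 arrays. Dnajb1 lay at 8.73 in the control and between 6.42 and 6.97 in the galactose arrays, Hspb8 lay at 3.61 in the control and between 4.81 and 6.88 in the galactose arrays, and Hsph1 stood out at 8.04 in C646+CPTH2.

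The promoters are shown for the sequence that heat shock factors bind. The genes were listed as heat shock genes, many of which these factors switch on. The counts below are therefore a description and not an independent finding. In the RefSeq windows of GRCr8, from 250 bases before to 50 after the annotated start, pairs of heat shock units were searched as GAANNTTC and TTCNNGAA; each is its own reverse complement, so that both strands give the same matches, and both overlap where 3 units follow each other. A window was given for 9 of the 10 genes, Hsp90aa1 having none. All 9 held at least 1 pair, while 15.9% of all 33469 windows did. At least 2 pairs were found in 7 of the 9 windows (2.28% of all windows), and 3 alternating units in 5, those of Hspa8, Hsph1, Dnaja1, Hspd1 and Hspe1 (0.798% of all windows). Hspd1 and Hspe1 lie head to head on chromosome 9 and their windows overlap, so their matches are the same letters read on opposite strands. The start used for Hspd1 lies 295 bases inside the gene as annotated, and its pairs lie inside the gene as well. The windows of the 3 genes called in a comparison are given 5′ to 3′ on the gene's strand, with the pairs in capitals. They lie at chr12:10427118-10427417 (+ strand, Hsph1), chr19:41431092-41431391 (- strand, Dnajb1) and chr12:45837058-45837357 (+ strand, Hspb8).
Hsph1: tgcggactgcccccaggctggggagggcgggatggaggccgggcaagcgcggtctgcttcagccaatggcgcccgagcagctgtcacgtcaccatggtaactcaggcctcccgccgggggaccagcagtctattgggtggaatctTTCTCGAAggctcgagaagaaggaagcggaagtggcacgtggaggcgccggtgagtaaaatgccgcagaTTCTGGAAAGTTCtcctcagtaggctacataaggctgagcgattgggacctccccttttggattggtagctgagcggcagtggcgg
Dnajb1: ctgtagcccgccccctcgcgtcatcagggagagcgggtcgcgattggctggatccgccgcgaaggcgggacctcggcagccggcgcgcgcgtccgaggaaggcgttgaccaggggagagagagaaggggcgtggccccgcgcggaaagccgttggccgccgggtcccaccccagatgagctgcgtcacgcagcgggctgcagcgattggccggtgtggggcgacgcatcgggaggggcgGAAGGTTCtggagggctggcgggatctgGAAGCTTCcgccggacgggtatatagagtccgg
Hspb8: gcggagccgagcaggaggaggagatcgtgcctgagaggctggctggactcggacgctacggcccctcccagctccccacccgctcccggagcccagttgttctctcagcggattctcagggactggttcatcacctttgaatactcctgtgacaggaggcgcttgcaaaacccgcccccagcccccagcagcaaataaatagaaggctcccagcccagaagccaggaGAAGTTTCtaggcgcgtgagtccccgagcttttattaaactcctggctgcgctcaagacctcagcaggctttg
The window of Hsph1 held 3 pairs, of which the 2 nearest the start share a unit and span bases -36 to -24, the start base being 0. That of Dnajb1 held 2 pairs, at -11 to -4 and at 17 to 24. That of Hspb8 held 1, at -23 to -16, but its start lies 1409 bases inside the gene as annotated. These matches describe the letters of the windows and no binding was measured.

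**Figure D2:**
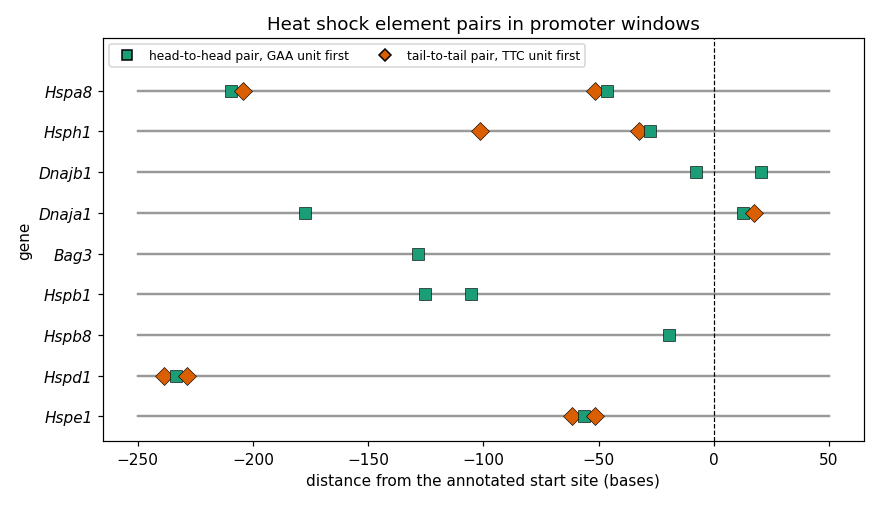
Positions of heat shock element pairs (squares, GAA unit first; diamonds, TTC unit first) in the promoter window of each gene, with the distance from the annotated start in bases on the horizontal axis. Each of the 9 windows held a pair, with 1 in Bag3 and Hspb8 and 4 in Hspa8. The starts used for Hspb8 and Hspd1 lie inside their genes as annotated.

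Dnajb1, a J-domain co-chaperone (Hsp40) that hands clients to Hsp70 and stimulates its ATPase, was lower in all 6 galactose arrays than in the control. Its signal was 6.68, 6.79 and 6.79 on galactose Day 6 and 6.42, 6.53 and 6.97 on galactose Day 4, against 8.73 in the control. The 6 galactose arrays lay close together and none came near the control. Dnajb1 fell on Day 6 (log2 difference -1.98, SE 0.25, 0.254 of the control, limma adjusted p = 0.00457) and on Day 4 (-2.09, SE 0.25, 0.235 of the control, limma adjusted p = 0.00392). It was the only measured chaperone called lower on either day, 1 of 9, where 2.69% of all genes were called lower on Day 6 and 1.45% on Day 4. When each gene's own spread was used in place of the moderated one, neither call remained (adjusted p = 0.0728 on Day 6 and 0.0901 on Day 4).

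Hspb8, a small heat shock protein that works with Bag3 to steer misfolded proteins to autophagy, moved the other way. It gave 6.84, 6.88 and 5.93 on galactose Day 6 and 4.81, 5.55 and 6.14 on galactose Day 4, against 3.61 in the control. Each galactose array lay above the control, and the days overlapped, with the lowest Day 6 array under the highest Day 4 array. Hspb8 rose on Day 6 (2.94, SE 0.51, 7.69-fold, limma adjusted p = 0.0173), the 1 of 9 chaperones called higher where 2.80% of all genes were. On Day 4 the difference was 1.89 (SE 0.51, adjusted p = 0.0706), with 0 of 9 chaperones called higher where 2.33% of all genes were. Without the Day 4 array numbered 1 it was 2.24 (adjusted p = 0.0344), and without the Day 6 array numbered 2 the Day 6 difference was 2.78 (adjusted p = 0.0545). The call was also lost with its own spread (adjusted p = 0.157). The control's signal lies under 5 and need not be above background, so the size is not exact, and Hspb8 passed the filter only through galactose and inhibitor arrays. The control was also the array with the highest mean of lens epithelium markers (7.35), and the part of this in the results of Hspb8 and Dnajb1 was not tested.

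Between Day 6 and Day 4, the mean of Hspb8 was 6.55 ± 0.54 on Day 6 and 5.50 ± 0.67 on Day 4 (SD, n = 3 each), a difference of 1.05 (SE 0.36, limma adjusted p = 0.883). No chaperone was called, as no gene of the array was (0%), while 363 genes and, of the chaperones, Hspb8 alone had an unadjusted p under 0.05. For Dnajb1 the means were 6.75 ± 0.06 on Day 6 and 6.64 ± 0.29 on Day 4 (SD, n = 3 each), and the 95% interval of the difference was -0.29 to 0.51.

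Dnaja1, Hspa8 and Hsph1, which also take part in the Hsp70 cycle, lay below the control in every galactose array without passing the test. With Dnajb1 and Hspb1, 5 of the 9 chaperones had all 6 galactose arrays below the control, as did 23.6% of all genes, and 1, Hspb8, had all 6 above it, as did 27.2% of all genes. Dnaja1, a second J-domain co-chaperone, gave 7.75, 7.96 and 7.72 on Day 6 and 8.04, 7.48 and 7.55 on Day 4, against 8.48 in the control. The differences were -0.67 (SE 0.26, limma adjusted p = 0.164) on Day 6 and -0.79 (SE 0.26, adjusted p = 0.119) on Day 4. Leaving out the arrays numbered 1 of both days gave -0.97 on Day 4, which was called (adjusted p = 0.0332).

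Hspa8, the constitutive Hsp70 (Hsc70), gave 11.29, 11.94 and 11.92 on Day 6 and 12.16, 11.86 and 11.92 on Day 4, against 12.30 in the control. Its lowest value was in the Day 6 array numbered 1, where the lens epithelium markers were also lowest of that day (5.60). The Day 4 array numbered 1 had the lowest markers of its day (5.33) but the highest Hspa8 of the galactose arrays (12.16). C646+CPTH2 had the lowest markers of the 13 arrays (4.63) and the highest Hspa8 (12.39). The part of the epithelium in these values was not tested. The difference was -0.59 (SE 0.29, limma adjusted p = 0.257) on Day 6 and -0.32 (SE 0.29, adjusted p = 0.57) on Day 4. Hsph1 (Hsp110), which releases ADP from Hsp70 and helps it to break up aggregates, gave 5.39, 5.53 and 5.61 on Day 6 and 4.93, 5.36 and 5.44 on Day 4, against 5.88 in the control. It differed by -0.37 (SE 0.25, adjusted p = 0.411) on Day 6 and by -0.64 (SE 0.25, adjusted p = 0.172) on Day 4.

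Bag3, a nucleotide exchange factor of Hsp70 and the partner of Hspb8, was not called on either day. Bag3 gave 5.58, 5.79 and 5.67 on Day 6 and 5.13, 5.45 and 5.56 on Day 4, against 5.35 in the control, which lay among the Day 4 arrays and below every Day 6 array. The difference was 0.33 (SE 0.23, limma adjusted p = 0.438) on Day 6 and 0.03 (SE 0.23, adjusted p = 0.961) on Day 4. Hspb1 (Hsp27), a small heat shock protein that forms oligomers around unfolded clients, ran opposite to Hspb8 with 10.20, 10.41 and 10.34 on Day 6 and 10.16, 10.51 and 10.79 on Day 4, against 10.99 in the control. All 6 galactose arrays of Hspb1 were below the control, with a difference of -0.67 (SE 0.26, adjusted p = 0.164) on Day 6 and of -0.50 (SE 0.26, adjusted p = 0.308) on Day 4.

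The mitochondrial chaperonin showed no shift beyond its spread. Hspd1 (Hsp60), which encloses clients in its ring, gave 6.18, 7.31 and 6.97 on Day 6 and 6.90, 7.26 and 7.06 on Day 4, against 6.48 in the control. Its differences of 0.34 (SE 0.38, limma adjusted p = 0.648) on Day 6 and 0.59 (SE 0.38, adjusted p = 0.409) on Day 4 were not called. Hspe1 (Hsp10), the lid of that ring, ranged from 8.29 to 9.11 on Day 6 and from 8.35 to 8.76 on Day 4, with 8.60 in the control inside both ranges. The interval of its difference was -0.63 to 0.80 on Day 6 and -0.74 to 0.68 on Day 4. Over the 9 chaperones the median difference from the control was -0.37 on Day 6 and -0.32 on Day 4, beside -0.01 on Day 6 and 0.05 on Day 4 over all genes; both days share the 1 control array.

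**Figure D3:**
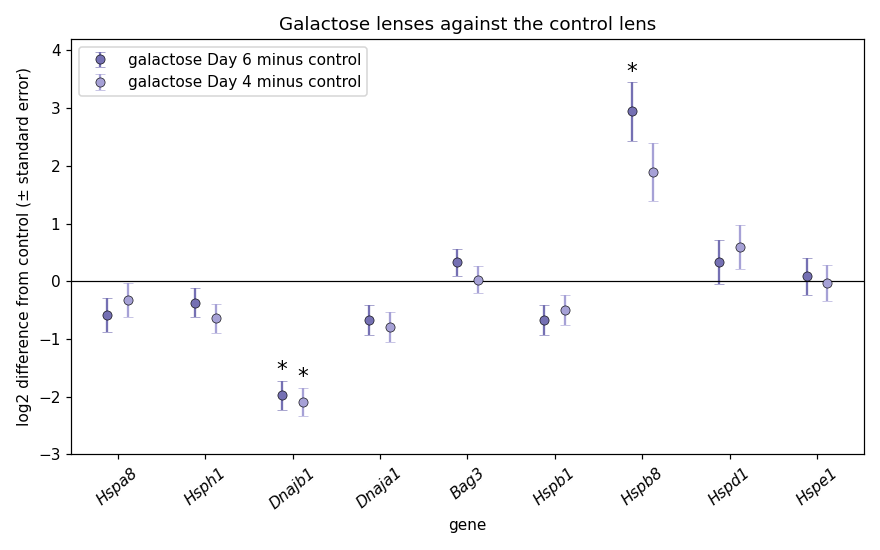
Log2 difference from the control array (vertical axis) of each gene on galactose Day 6 (dark) and galactose Day 4 (light), with the standard error of the fit as bars and a star where the limma adjusted p was under 0.05. Dnajb1 lay at -1.98 on Day 6 and -2.09 on Day 4, and Hspb8 at 2.94 on Day 6 and 1.89 on Day 4, where it was not called.

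Among the inhibitor treatments, 1 chaperone was called in 1 treatment. Hsph1 reached 8.04 in C646+CPTH2, 6.49 in CBP30+CPTH2, 6.11 in CBP30, 5.70 in TH1834, 5.44 in CPTH2 and 5.29 in C646, against 5.39, 5.53 and 5.61 on galactose Day 6. The C646+CPTH2 array was higher than every other array of the series (as for 7.82% of all genes), including the control at 5.88, while C646 alone differed from the Day 6 mean by -0.22 and CPTH2 alone by -0.07. Hsph1 rose in C646+CPTH2 (2.53, SE 0.25, 5.78-fold, limma adjusted p = 0.00748), the 1 of 9 called higher where 0.634% of all genes were, and 0 of 9 were called lower where 0.221% of all genes were. With its own spread the call was lost (adjusted p = 0.182). The treatment has 1 array, and in it the lens epithelium markers stood at 4.63, the lowest mean of the 13 arrays; their part in the result was not tested.

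In CBP30+CPTH2 the 2 chaperones farthest from galactose Day 6 were Dnajb1, at 1.10 (SE 0.25, limma adjusted p = 0.0996), and Hsph1, at 0.98 (SE 0.25, adjusted p = 0.105). Neither passed, and no gene of the array was called in CBP30+CPTH2 (0%). An unadjusted limma p under 0.05 was found for 1408 of the 6778 genes and 5 of the 9 chaperones. Of these chaperones, Hsph1, Dnajb1, Dnaja1 and Hspd1 were higher and Hspb1 was lower (-0.69). Dnajb1 gave 7.85 in CBP30+CPTH2, 7.48 in TH1834, 7.37 in CBP30, 7.29 in C646+CPTH2, 7.03 in CPTH2 and 6.81 in C646, against 6.68, 6.79 and 6.79 on galactose Day 6. All 6 treatments were above the 3 Day 6 arrays, C646 only just, and all were below the control at 8.73. Of all genes, 6.89% had the 6 treatments above the Day 6 arrays. In TH1834 Dnajb1 differed by 0.73 (SE 0.25, adjusted p = 0.279), where 0.0590% of all genes were called.

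Hspa8 and Dnaja1 had higher signals in both combinations than on galactose Day 6 without passing the test. Hspa8 gave 12.39 in C646+CPTH2, 12.35 in CBP30+CPTH2, 12.22 in CBP30, 12.11 in CPTH2, 12.11 in TH1834 and 11.79 in C646, against 11.29, 11.94 and 11.92 on Day 6. The differences from the Day 6 mean were 0.39 to 0.67 in all treatments but C646 (0.07). The largest, in C646+CPTH2 (SE 0.29), was not called. Dnaja1 gave 8.56 in CBP30+CPTH2, 8.26 in C646+CPTH2, 8.23 in TH1834, 7.95 in CPTH2, 7.88 in CBP30 and 7.85 in C646, against 7.75, 7.96 and 7.72 on Day 6. Its differences from the Day 6 mean were 0.45 in C646+CPTH2, 0.42 in TH1834 and 0.04 to 0.14 in C646, CBP30 and CPTH2. The difference was 0.75 (SE 0.26, adjusted p = 0.163) in CBP30+CPTH2.

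Bag3 divided the treatments in another way. It gave 6.55 in C646+CPTH2 and 6.38 in CBP30, with 5.63 to 5.81 in the other 4 treatments, against 5.58, 5.79 and 5.67 on galactose Day 6. The differences were 0.87 (SE 0.23, limma adjusted p = 0.133) in C646+CPTH2 and 0.70 (SE 0.23, adjusted p = 0.221) in CBP30. Without the arrays numbered 1 of both galactose days, the difference in C646+CPTH2 was 0.82 and was called (adjusted p = 0.0496). In CBP30+CPTH2 Bag3 stood at 5.63, inside the range of Day 6.

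Hspb1 was the chaperone that lay below galactose Day 6 in most treatments. It gave 9.49 in C646+CPTH2, 9.63 in CBP30+CPTH2, 9.75 in C646, 9.90 in CPTH2, 10.17 in TH1834 and 10.45 in CBP30, against 10.20, 10.41 and 10.34 on Day 6. In 5 of 6 treatments it was under all 3 Day 6 arrays, and in CBP30 above all 3; 5.02% of all genes were under the Day 6 arrays in at least 5 treatments. The largest difference was -0.83 (SE 0.26, limma adjusted p = 0.18) in C646+CPTH2, which was not called. The lens epithelium markers were, like Hspb1, highest in the control (7.35) and lowest in C646+CPTH2 (4.63). Within each galactose day both were lowest in the array numbered 1 (markers 5.60 on Day 6 and 5.33 on Day 4). Among the inhibitor arrays the markers were highest in TH1834 (6.84) and C646 (6.50), where Hspb1 lay under the Day 6 arrays. Hspb1 was highest of these in CBP30, where the markers stood at 6.23. The part of the markers in the values of Hspb1 was not tested. Hspb8 remained far above its control signal of 3.61 in every treatment, at 5.90 to 6.92, and its differences from Day 6 of -0.65 (TH1834) to 0.37 (CPTH2) had standard errors of 0.51. Hspd1 reached 7.70 in CBP30+CPTH2 and 7.66 in CBP30 and 6.75 to 7.33 in the other 4 treatments, against 6.18, 7.31 and 6.97 on Day 6, and Hspe1 stayed inside the range of its Day 6 arrays in all 6 treatments.

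**Figure D4:**
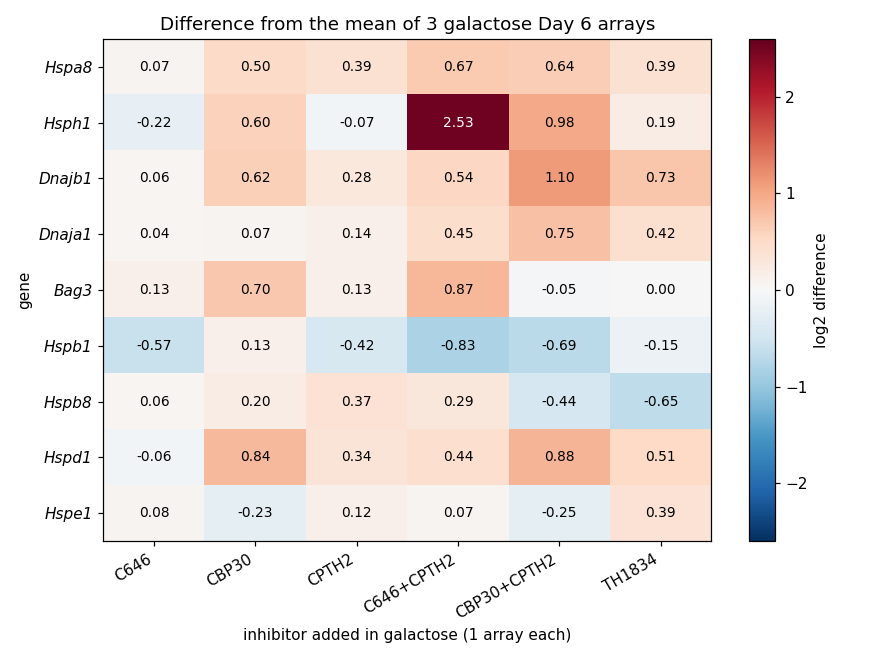
Log2 difference of each inhibitor array (columns, 1 array each) from the mean of the 3 galactose Day 6 arrays for each gene (rows), with the value printed in each cell and red for higher. Hsph1 in C646+CPTH2, at 2.53, is the only cell called; Hspb1 is below 0 in 5 columns.

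Per treatment, the median difference of the 9 chaperones from galactose Day 6 was 0.06 in C646, 0.50 in CBP30, 0.14 in CPTH2, 0.45 in C646+CPTH2, 0.64 in CBP30+CPTH2 and 0.39 in TH1834. Beside these, the median over all genes was 0.09 in C646, 0.07 in CBP30, 0.17 in CPTH2, 0.03 in C646+CPTH2, 0.15 in CBP30+CPTH2 and 0.11 in TH1834. The 6 comparisons share the 3 Day 6 arrays. In C646 no gene was called (0%), with 275 genes and 0 chaperones at an unadjusted p under 0.05. In CBP30 no gene was called either (0%), with 1072 genes and 3 chaperones, Hsph1, Dnajb1 and Bag3, at an unadjusted p under 0.05. In CPTH2 0.0295% of all genes were called and 0 chaperones, none of which had an unadjusted p under 0.05. The scaling of the arrays matters for the small differences: of the 9 chaperones, 6 were positive in C646 (64.2% of all genes) and 7 in CPTH2 (70.4% of all genes) as deposited, and after median centring 1 was positive in C646 and 4 in CPTH2. In C646+CPTH2 8 were positive (53% of all genes) and in CBP30+CPTH2 5 (64.7% of all genes), with the same counts of chaperones under median centring and quantile normalization.

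For the mean of the 6 treatments against galactose Day 6, Hsph1 differed by 0.67 (SE 0.15, limma adjusted p = 0.0898) and Dnajb1 by 0.55 (SE 0.15, adjusted p = 0.126), and 0 of 9 chaperones were called where 0.103% of all genes were. The value of Hsph1 rested on 1 array: without C646+CPTH2 it was 0.30 (adjusted p = 0.316), while that of Dnajb1 was 0.56 (adjusted p = 0.14). Against all 6 galactose arrays in place of Day 6, both were called, at 0.80 for Hsph1 (adjusted p = 0.0222) and 0.61 for Dnajb1 (adjusted p = 0.0394), and the calls over all genes increased as well, to 251 (3.70%) in place of 7.

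In the study's opacity test CPTH2 alone, here among the others, had a slight effect, while C646+CPTH2, CBP30+CPTH2 and TH1834 were named as effective. Between these and the other 3 treatments no gene was called (0%), with 481 genes and 3 chaperones, Hsph1, Dnajb1 and Dnaja1, at an unadjusted p under 0.05. Dnajb1 was 7.29, 7.85 and 7.48 in the effective treatments and 6.81, 7.37 and 7.03 in the others, a difference of 0.47 (SE 0.18, limma adjusted p = 0.682) with 1 value of the others above the lowest effective one. Dnaja1 did not overlap, with 8.26, 8.56 and 8.23 in the effective treatments and 7.85, 7.88 and 7.95 in the others, but its difference of 0.46 (SE 0.19, adjusted p = 0.684) was not called, and 2.77% of all genes had the effective treatments above the others in the same way. Hsph1 differed by 1.13 (SE 0.18, adjusted p = 0.218), and by 0.48 (adjusted p = 0.543) without C646+CPTH2.

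CPTH2 was added in galactose alone, with C646 and with CBP30, which allows its effect to be compared on 3 backgrounds. For Hsph1 the arrays with and without CPTH2 stood at 5.44 against 5.39 to 5.61 in galactose alone, at 8.04 against 5.29 with C646 and at 6.49 against 6.11 with CBP30. Averaged over the backgrounds the difference was 1.02 (SE 0.17, limma adjusted p = 0.0916), with 0.0885% of all genes called, and it was 0.16 (adjusted p = 0.729) without C646+CPTH2. Without the Day 4 array numbered 1, which enters only through the spread, the average was called (adjusted p = 0.0488). The effect of CPTH2 with C646 exceeded that in galactose alone by 2.82 (SE 0.40, 95% interval 1.92 to 3.71, unadjusted p = 5.62e-05 from the limma model), a comparison added after these values were seen. It did not pass the adjustment (adjusted p = 0.191), nor did any gene (0%), with 482 genes and 1 chaperone at an unadjusted p under 0.05. The effect with C646 exceeded that with CBP30 by 2.37 (SE 0.43, adjusted p = 0.612), with no gene called (0%) and 421 genes and 2 chaperones at an unadjusted p under 0.05.

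The second of these chaperones was Bag3, for which the effects ran in opposite directions. Bag3 with and without CPTH2 stood at 5.81 against 5.58 to 5.79 in galactose alone, at 6.55 against 5.81 with C646 and at 5.63 against 6.38 with CBP30, and the effects with C646 and CBP30 differed by 1.50 (SE 0.40, limma adjusted p = 0.639). Dnajb1 was higher with CPTH2 on each background, at 7.03 against 6.68 to 6.79, at 7.29 against 6.81 with C646 and at 7.85 against 7.37 with CBP30, an average of 0.41 (SE 0.17, adjusted p = 0.314). Hspb1 was lower with CPTH2 on each background, by an average of -0.50 (SE 0.18, adjusted p = 0.264). Neither average was called. On each background 4 of the 9 chaperones were higher with CPTH2 (Dnajb1, Dnaja1, Hspa8 and Hspd1), as were 22.3% of all genes. Hspb1 was the 1 of 9 that was lower on each, as were 10.4% of all genes.

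**Figure D5:**
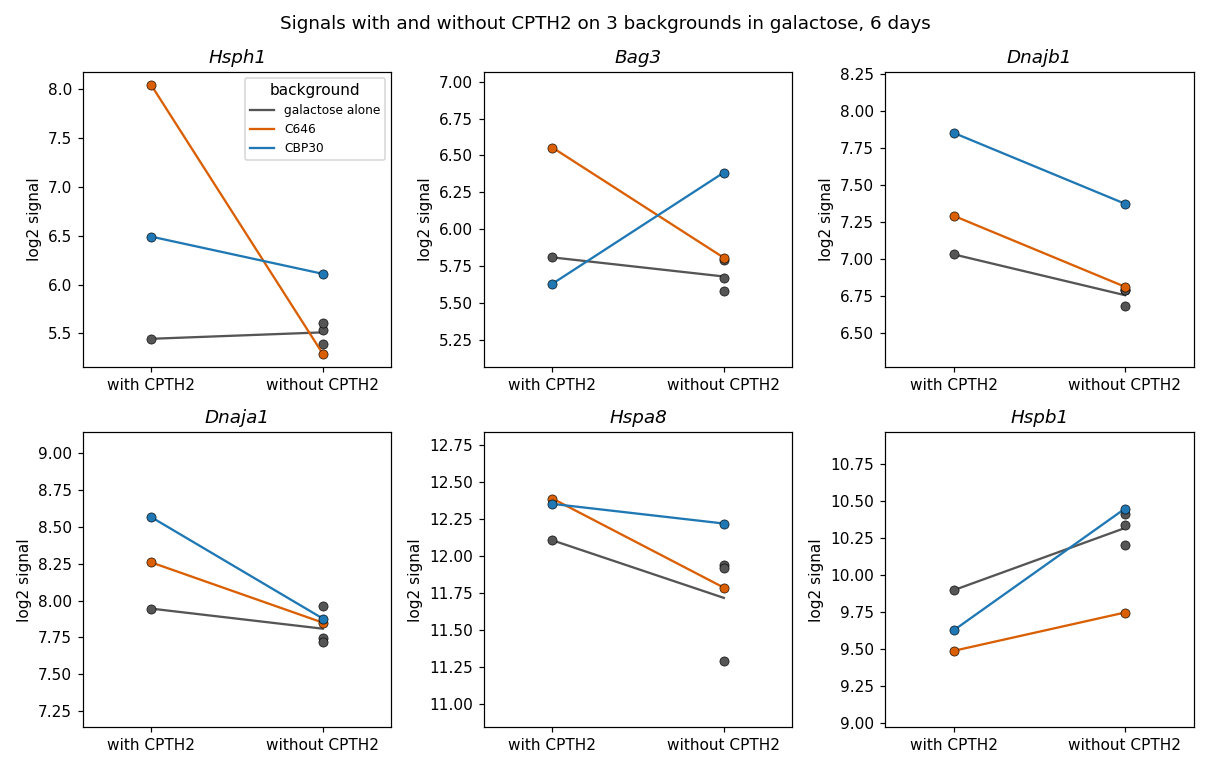
Log2 signal (vertical axis) of 6 chaperone genes with CPTH2 (left) and without it (right) in galactose alone (grey, with 3 arrays without CPTH2), with C646 (orange) and with CBP30 (blue); lines join the arrays, or the mean of the 3. The line of Hsph1 with C646 links 8.04 to 5.29, and the lines of Bag3 with C646 and with CBP30 cross.

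The rest of the chaperone network was described from 8 lists with 52 genes past the filter, chosen by function. On galactose Day 6, 0 of the 52 were called higher and 1 lower (2.80% and 2.69% of all genes), and on Day 4, 1 was called higher and 1 lower (2.33% and 1.45% of all genes). These counts are close to those shares. Dnajc2, a ribosome-bound J-domain protein, fell on Day 6 (-0.83, SE 0.20, limma adjusted p = 0.0499) with a mean of 5.67 against 6.49 in the control. Dnajc21, a J-domain protein of ribosome assembly, fell on Day 4 (-1.46, SE 0.31, adjusted p = 0.0402) with a mean of 4.13 against 5.59 in the control, a size that is not exact because signals under 5 need not be above background. Trap1, the mitochondrial Hsp90, rose on Day 4 (1.26, SE 0.26, adjusted p = 0.0389) with a mean of 6.81 against 5.55 in the control. The calls of Dnajc2, Dnajc21 and Trap1 rest on the 1 control array and lie close to the threshold of 0.05. How they hold under the alternatives is not reported.

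The median difference of the 52 genes was 0.05 on Day 6 and 0.08 on Day 4, with 29 positive on Day 6 and 28 on Day 4. Of the heat shock factors, Hsf4, the factor needed for lens fibre differentiation, averaged 8.29 on Day 6 and 8.53 on Day 4 and was 8.92 in the control (Day 6 difference -0.63, SE 0.24, limma adjusted p = 0.156). Hsf1, the main factor of the heat shock response, averaged 5.62 on Day 6 and 5.48 on Day 4 and was 5.61 in the control. Cryab (alpha B-crystallin), a small heat shock protein of the lens, averaged 13.10 on Day 6 and 13.14 on Day 4 and was 13.26 in the control. Neither Hsf1 nor Cryab was called. In C646+CPTH2, 0 of the 52 were called higher (0.634% of all genes) and 1 lower (0.221% of all genes), namely Hspa2, an Hsp70 best known from the testis, at 3.26 against a mean of 5.69 on Day 6 (-2.43, SE 0.31, adjusted p = 0.0125). Its signal in that array lies under 5 and need not be above background, so the size is not exact. Hsf1 stood at 5.94 in C646+CPTH2 (0.32, SE 0.20, adjusted p = 0.472), beside Hsph1 at 8.04. The inducible Hsp70 genes Hspa1a and Hspa1b share 1 probe set and have no value here.

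The genes whose pattern over the 13 arrays was most like that of Dnajb1 were Dpp8 (Pearson r = 0.91), Lrp6 (0.91), Hmg20b (0.90), Ash1l (0.90) and Dck (0.89). For Hspb8 they were Fam110a (0.91), Mir764 (0.88), Cd63 (0.87), Parl (0.86) and Glmp (0.86). No other chaperone was among the 5 nearest of either gene, which says little, as the measured chaperones are 9 of the 6778 genes. The control was the highest array for Dnajb1 (8.73) and the lowest for Hspb8 (3.61), so this 1 array weighs heavily in the correlations. The arrays share their processing, and the correlations were taken as a description from 6778 genes.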

How the data were processed

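Total RNA of rat lenses was measured on 13 arrays. The table deposited by the authors, who did the preprocessing in R, held log2 signals of 36685 probe sets. How background was corrected and probes were normalized and summarised is not given in the sources used here, and the values were not changed. Of the probe sets, 18511 carried 1 gene in the platform annotation, 575 several and 17599 none; 18394 matched the RefSeq table by identifier and 0 symbols changed. For the 291 genes with several probe sets, the one with the highest mean was used. Hspd1 has a second probe set with a mean of 4.72, and a second probe set of Hspa8 is shared with other genes; neither was used.

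A model with 1 group per condition over all 13 arrays was fitted in limma 3.58.1 (R 4.3.3), with 4 residual degrees of freedom and a prior of 4.97. It was tested on simulated data in which 200 genes were changed. Of log2 changes of 1, it recovered 3.1% for galactose Day 4 against the control and 6.5% for TH1834 against galactose Day 6. For galactose Day 6 against Day 4 it recovered 65.2%. Of changes of 2 it recovered 86.9%, 86% and 95% in that order. A chaperone that was not called at a difference near 1 need not be unchanged. Tables, promoter searches and figures were made with matplotlib 3.10.9, numpy 2.4.6 and pandas 2.3.3 under Python 3.11.15. The genes and lists were chosen with earlier results of these data known. All 10 chaperones were to be named; of the other lists, at most 3 genes each per comparison that passed the test, with Hsf1, Hsf4 and Cryab added after their values were seen. The alternatives were quantile normalization, median centring, other filters, the mean of all probe sets, other priors, each gene's own spread, a replicate block, all galactose arrays as reference and leaving out arrays. Means without C646+CPTH2 and the differences between CPTH2 effects were added after seeing the data.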

Additional observations from a re-analysis of the deposited data

How the results depend on the processing

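Of 250 counts of called chaperones under alternatives, 238 stayed within 1.5 times the count reported and 12 did not. In most comparisons the count reported was 0, and 0 against 0 was taken as unchanged. The 238 therefore says little about how firm the calls are. With each gene's own spread, 0 chaperones were called on Day 6, 0 on Day 4 and 0 in C646+CPTH2. Without the arrays numbered 1 of both days, 3 were called on Day 4 (Dnajb1, Dnaja1, Hspb8), 2 in C646+CPTH2 (Hsph1, Bag3) and 1 for CPTH2 added (Hsph1). Against all 6 galactose arrays, 2 were called for the mean of the 6 treatments (Hsph1, Dnajb1). Leaving out 1 galactose array at a time gave 1 to 2 on Day 6 (1 without Day 6 replicate 2), 1 to 2 on Day 4 (2 without Day 4 replicate 1) and 0 to 1 for CPTH2 added (1 without Day 4 replicate 1). Over the alternatives Dnajb1 differed by -1.93 or lower on Day 6 (adjusted p = 0.00311 to 0.0728) and by -2.25 to -1.98 on Day 4 (0.00285 to 0.0901), Hspb8 by 2.78 to 3.26 on Day 6 (0.0085 to 0.157) and Hsph1 by 2.47 to 2.67 in C646+CPTH2 (0.00168 to 0.182), and 0 of these reversed. Every alternative for these differences kept the lone control or C646+CPTH2 array on which they rest. The absence of a reversal therefore does not show how far they depend on that array. The cause of the changed calls was not tested.

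Same-numbered arrays of Day 6 and Day 4 deviated together with correlations of 0.34, 0.08 and 0.25, so the numbers were not taken to pair the arrays; Day 4 replicate 2 correlated best with Day 6 replicate 3 (0.14). With the replicate block, 1 chaperone (Hsph1) was called for CPTH2 added (adjusted p = 0.0258) and 1 (Hsph1) for the CPTH2 effect with C646 against galactose alone (adjusted p = 0.0389), and it changed no other call of a chaperone. Over all genes the counts moved further, with 36 to 903 called on Day 6 (372 reported), 24 to 662 on Day 4 (256), 1 to 402 in C646+CPTH2 (58), 0 to 251 for the mean of the 6 treatments (7), 0 to 116 for CPTH2 added (6), 0 to 78 in CBP30+CPTH2 (0), 0 to 25 in CBP30 (0), 1 to 22 in TH1834 (4) and 0 to 8 in CPTH2 (2). Median centring moved the median of all genes by -0.19 in CPTH2, -0.19 in CBP30+CPTH2, -0.13 in TH1834, -0.12 for the mean of the 6 treatments and -0.10 in CBP30.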
